A study of Mus musculus with 9 samples.

Results

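Genes for endoplasmic reticulum (ER) chaperones and for the unfolded protein response were followed in heart RNA. The members were taken by symbol from a list of 37 genes, of which 36 were present among the 13890 genes counted. All 36 passed the filter on low counts that left 13364 genes to test, and Derl3 was not analysed here. The rule that chose them uses gene function, and the list was drawn up with earlier results of these data known. The hearts came from 9 male NSG mice, an immunodeficient strain without mature T, B and natural killer cells that accepts human tumour cells. The mice were 8 weeks old at surgery and were taken about 3 weeks later. Sham mice (S, animals 2, 3 and 5) had a vehicle injected into the spleen. Tumour hosts (T, animals 11, 12 and 15) are labelled as injected with HCT116, a human colorectal cancer cell line that then grows in the liver. Treated tumour hosts (A + T, animals 20, 21 and 22) are labelled as injected with HCT116 and given ACVR2B/Fc, a soluble activin receptor type 2B fused to an antibody Fc part, which binds activins, myostatin and related ligands. The same 3 animals per group are used throughout, and all values in a group are given in the order of these animal numbers.

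Proteins that are secreted or set in membranes enter the ER through the Sec61 channel and are folded there with the help of the chaperone BiP (Hspa5), its DnaJ partners and exchange factors, the lectins calnexin and calreticulin, and the disulfide isomerases. Chains that do not fold are passed back to the cytosol and degraded, a route called ER-associated degradation. When unfolded chains build up, 3 sensors in the ER membrane respond: Ire1 (Ern1), which removes an intron from Xbp1 mRNA, Perk (Eif2ak3), which slows translation, and Atf6, which is cut to release a transcription factor. Xbp1 and Atf6 then raise the transcription of the chaperones through short promoter elements. In heart muscle the same compartment is joined to the calcium store, and Atf6 and Xbp1 are known for their part in stress of the myocardium. Counts per gene show neither the splicing of Xbp1 nor the cutting or phosphorylation of the sensors, so the values below are mRNA levels only.

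The libraries held between 12392222 and 19732471 counts on genes. The least counted member, Ero1lb, had at least 43 counts in every library. Levels are given as CPM (counts-per-million of the library size after TMM scaling, which adjusts for differences in composition between libraries). Differences were tested with edgeR's quasi-likelihood test in a fit of all 9 libraries, and a gene was called when its Benjamini-Hochberg adjusted p, taken over all genes tested, was under 0.05. The ± after a log2 fold change is its standard error. Nothing states that the samples of a group came from separate cages or days, and the p-values measure only the spread between these samples. An exact permutation test of 3 against 3 animals cannot give a two-sided p under 0.1 and was not used. The changes of the libraries labelled T were set beside the gene list that the study supplies, and they followed its column for mice given ACVR2B/Fc without a tumour more closely than its column for tumour hosts. Whether these animals carried a tumour or received ACVR2B/Fc cannot be told from the counts, and a direction for T is always one of libraries carrying that label. These libraries enter T vs. S as well as A + T vs. T, so the values of both are given side by side and not as independent results.

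The tissue label was met by 8 of 8 ventricular cardiomyocyte markers (Myh6, Tnni3, Myl2 and others), whose summed level lay between 57866 and 81147 CPM. The summed level of 6 fibroblast markers lay between 1699 and 1867 CPM in S, between 886 and 1027 CPM in T, and between 1229 and 1940 CPM in A + T. All 6 were called lower in T vs. S, 4 were called higher in A + T vs. T, and in A + T vs. S edgeR called 0, also at an unadjusted p under 0.05. The 5 endothelial markers summed to between 714 and 836 CPM in S, 419 and 521 CPM in T, and 542 and 634 CPM in A + T, with 4 called lower in T vs. S. The 6 macrophage markers summed to between 313 and 344 CPM in S, 282 and 373 CPM in T, and 517 and 753 CPM in A + T, with 5 called higher in A + T relative to T, and 5 relative to S. In bulk RNA, fewer cells of a type and less RNA per cell cannot be told apart, and the part of these cell types in the member values was not tested. For plasma cells, whose ER is large, 4 of 6 markers were not among the genes counted and the other two summed to between 6.68 and 22.9 CPM. Airway genes (Scgb1a1 and others) summed to 167 CPM in animal 12 of T and 1278 CPM in animal 22 of A + T, against between 0.498 and 3.20 CPM in the other 7 libraries. Atrial markers summed to between 3155 and 3211 CPM in S and between 811 and 2159 CPM in A + T. In T they ranged from 876 CPM in animal 15 to 4782 CPM in animal 12. Adipocyte markers summed to between 281 and 364 CPM in S, 297 and 353 CPM in T, and 364 and 516 CPM in A + T. Of 5 erythroid markers only 1, Alas2, was among the genes counted, at between 68.4 and 341 CPM. The 4 hepatocyte markers summed to at most 15.3 CPM. Of 5 pancreatic acinar markers only 1, Cela1, was counted, at up to 1.67 CPM. Without animals 12 and 22, the called members numbered 8 for T vs. S (5 with all libraries), 6 for A + T vs. T (5) and 4 for A + T vs. S (2). The share of all genes tested that was called went from 21.2% to 26.4%, from 5.88% to 6.55% and from 8.31% to 9.42% in the same order.

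To compare genes with each other, the deposited log2 values were used, which were read as scaled by gene length. The labels do not state their scaling. On this scale of level per length, 29 of the 36 members lay above the median gene of S, at 2.45. Hspa5, which encodes BiP, was the highest member in every group, with a log2 level of 8.45 ± 0.22 in S (SD, n = 3), above 98.9% of all genes. Hsp90b1, the ER member of the Hsp90 family (Grp94), followed at 7.82 ± 0.17, and Calr, calreticulin, at 7.45 ± 0.18. P4hb, a protein disulfide isomerase, stood at 6.83 ± 0.03 and Herpud1, a membrane scaffold of ER-associated degradation, at 6.78 ± 0.02. Of the sensors, Atf6 stood at 4.68 ± 0.01, rank 13 of the members and above 84.6% of all genes. Eif2ak3 at 2.00 ± 0.03 and Ern1 at 1.86 ± 0.33 lay below the median gene. The lowest member was Ero1lb, one of a pair of oxidases that supply disulfide bonds, at 0.04 ± 0.18. From highest to lowest the members spanned 8.41 on the log2 scale. Of the 35 pairs of neighbours in this order, 25 had overlapping ranges in S and were not told apart by these libraries. Between groups, Herpud1 moved from rank 5 in S to rank 3 in T and back to rank 5 in A + T. Hyou1, a large Hsp70-like exchange factor for BiP, moved down from rank 15 (S) to rank 20 (T) and rank 22 (A + T).

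**Figure D1:**
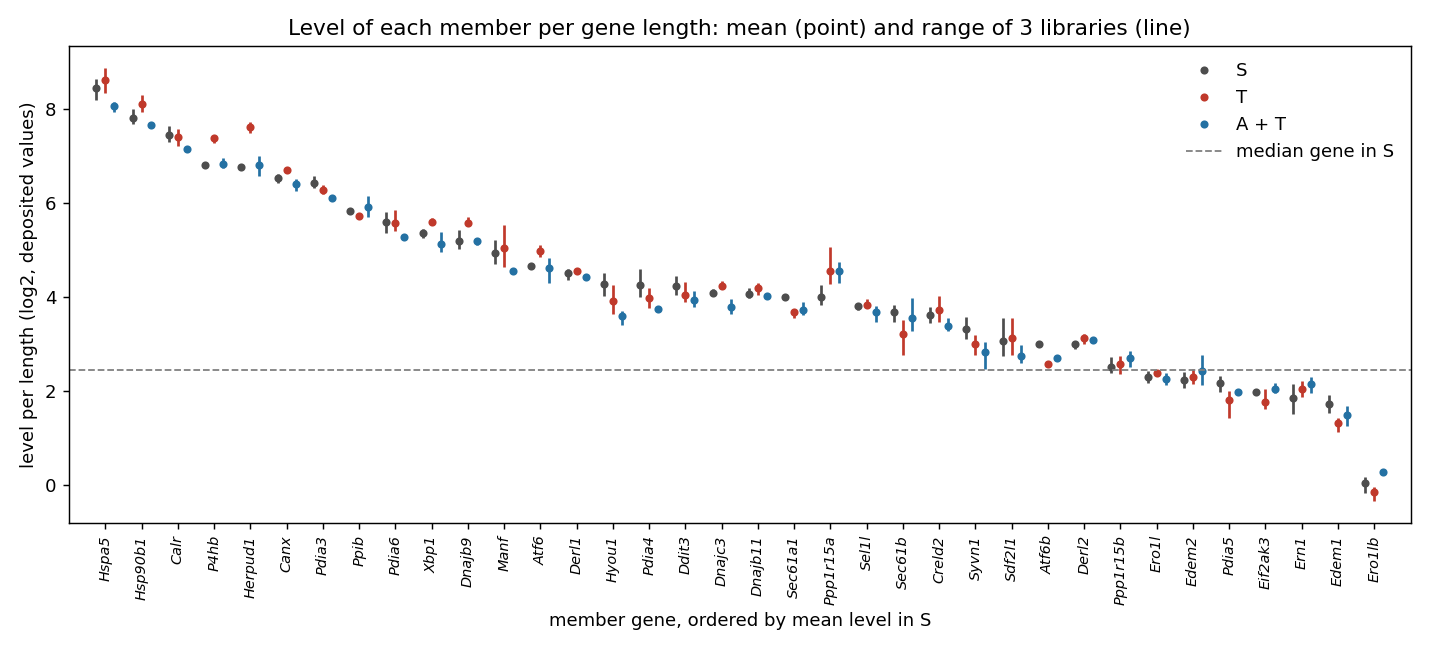
Level of each of the 36 members per gene length, in the deposited log2 values, ordered by the mean in S, with points for the mean and lines for the range of the 3 libraries of S, T and A + T. Hspa5 lies highest in each group and Ero1lb lowest, the dashed line marks the median gene of S at 2.45, and the T points of Herpud1 and P4hb stand above those of S and A + T.

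The ER stress response element (ERSE) is the promoter motif through which Atf6, together with the CCAAT-binding factor NF-Y, acts on chaperone genes, and ERSE-II is a compact form of it. RefSeq promoter windows of GRCm38.p6, running from 250 bases before to 50 after the start of each gene, were searched on both strands for ERSE (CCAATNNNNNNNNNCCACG) and ERSE-II (ATTGGNCCACG). The windows of 31 of the 37 listed genes were given, and those of Hyou1, Manf, Atf6, Ppp1r15b, Derl1 and Sec61a1 were not. ERSE was found for 10 of the 31 genes (32.3%), which are Calr, Canx, Creld2, Derl3, Dnajc3, Ero1lb, Hsp90b1, Hspa5, Pdia6 and Syvn1. It was found for 37 of all 27025 genes with a window (0.137%). ERSE-II was found for Herpud1 and Dnajb11, and for 12 of all genes (0.0444%). Among 94 further genes of the pathway with a window, 0 held ERSE and 0 held ERSE-II. Neither the Xbp1-type element UPRE (TGACGTGG, in 0.714% of all genes) nor the Atf4-type element CARE (TGATGNAAT, in 1.08%) was found in a member's window. A match is a description of letters and not a measured binding site. The matches shown belong to the members called lower in A + T vs. T that hold one (Hsp90b1, Dnajc3 and Herpud1), to Hspa5, the most abundant member, and to Ero1lb, the only ERSE member with a positive log2 fold change in that comparison. Each is written 5′ to 3′ on the strand of its gene, with the CCAAT and CCACG boxes or their reverse complements in capitals.
Hspa5, chr2:34772020-34772048, plus strand: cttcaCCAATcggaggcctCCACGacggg
Hsp90b1, upstream match, chr10:86705633-86705661, minus strand: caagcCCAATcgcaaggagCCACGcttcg
Hsp90b1, match nearer the start, chr10:86705528-86705556, minus strand: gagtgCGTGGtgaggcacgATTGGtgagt
Dnajc3, chr14:118937822-118937850, plus strand: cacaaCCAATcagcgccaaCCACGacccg
Herpud1, chr8:94386372-94386392, plus strand: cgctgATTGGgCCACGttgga
Ero1lb, chr13:12565677-12565705, plus strand: ggcctCGTGGtcccgcctcATTGGccgcc

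The match of Hspa5 begins, with its flanks, 70 bases before the RefSeq start. It overlaps a UTR annotated in GENCODE, where the gene starts further upstream, at 34771970. The other matches shown lie outside annotated UTRs. Hsp90b1 holds the element in both orientations, and in Herpud1 a single base separates the boxes of ERSE-II.

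In the hearts labelled T vs. S, the ER members went in both directions. Herpud1 was 1.80-fold higher, P4hb 1.48-fold higher and Dnajb9, a BiP co-chaperone, 1.30-fold higher, while Atf6b, a relative of Atf6, was 1.35-fold lower and Sec61a1, the pore subunit of the Sec61 channel, 1.26-fold lower. These 5 of 36 members were called, 3 higher and 2 lower, where 10.3% of all genes tested were called higher and 11% lower. BiP itself (Hspa5) had a log2 fold change of 0.17 ± 0.15 and was not called. Of the 36 members 21 had a positive and 15 a negative log2 fold change, with a median of 0.05 against −0.00 over all genes tested. This balance depended on single animals. Without animal 15 of T, 20 were negative (median −0.033), and without animal 3 of S, 19 were (median −0.007). With any other animal left out, 14 to 17 were negative. By role, with all libraries, 8 of 10 folding chaperones were positive (median 0.13), as were 2 of 6 disulfide enzymes (median −0.11).

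Between A + T and T, 25 of the 36 members were on the lower side and the 5 that were called were all lower. Herpud1 was 1.73-fold lower, P4hb 1.46-fold, Hsp90b1 1.38-fold, Xbp1 1.38-fold and Dnajc3, a co-chaperone that also restrains Perk, 1.37-fold. Of all genes tested, 2.79% were called lower and 3.09% higher. edgeR called 0 members higher, as did DESeq2, and at an unadjusted p under 0.05 there were 13 members lower and 2 higher, where 10.6% of all genes were lower and 11.8% higher. The median log2 fold change of the members was −0.16, against 0.01 over all genes tested. Of the folding chaperones, 9 of 10 had a negative value, with a median of −0.39. The median was −0.25 for the 3 members of the calnexin and calreticulin cycle, −0.18 for the 6 disulfide enzymes and −0.11 for the 7 degradation factors tested, whereas that of the 8 sensors and transcription factors was 0.04 and both translocon members were positive. How many members were called depended on the method, with 8 in DESeq2, 3 after upper-quartile scaling, 2 with only the compared groups in the fit and 1 after scaling by library size only. The genes called among all those tested numbered 1198, 759, 217 and 438 under these settings, against 786.

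Relative to S, 2 members were called in the A + T hearts, Hyou1, 1.62-fold lower, and Atf6b, 1.24-fold lower, where 3.64% of all genes were called lower and 4.67% higher. Herpud1 and P4hb were within 1.04-fold and 1.01-fold of S. On the lower side were 26 of the 36 members, with a median log2 fold change of −0.14 against 0.00 over all genes tested. At an unadjusted p under 0.05, 10 members were lower and 1 was higher, where 12.5% of all genes were lower and 13.6% higher. edgeR and DESeq2 each called 0 members higher.

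**Figure D2:**
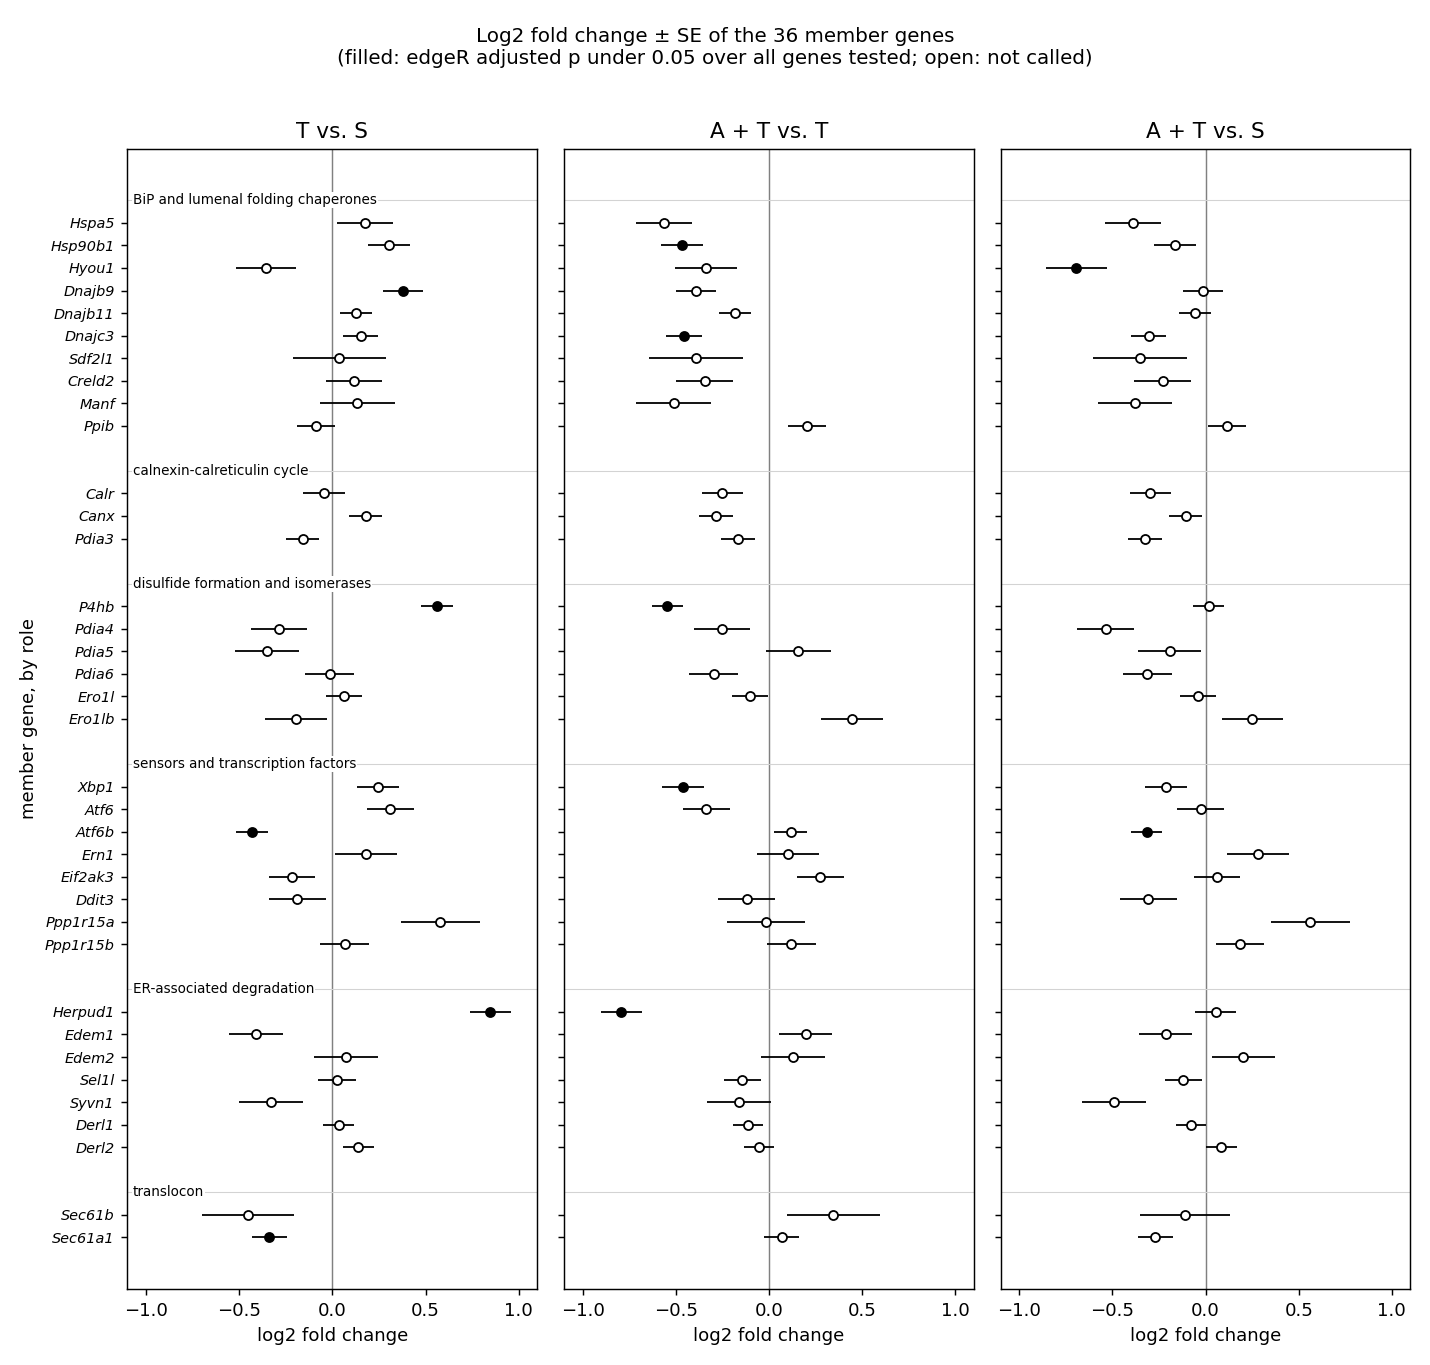
Log2 fold change (horizontal axes) with standard error of the 36 members, grouped by role, in 3 panels (T vs. S, then A + T against each of T and S), with filled points for members called at an edgeR adjusted p under 0.05. In A + T vs. T the 5 filled points (Hsp90b1, Dnajc3, P4hb, Xbp1 and Herpud1) all lie below 0, and in T vs. S 3 lie above and 2 below.

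Among BiP and the folding chaperones of the ER lumen, Hsp90b1 (chr10:86690209-86705509, minus strand of GRCm38) was at 571, 604 and 719 CPM in S, 779.6, 683 and 874 CPM in T, and 554, 572 and 567 CPM in A + T. Every A + T library lay below every T library, with the 3 A + T values close together, whereas the S and T ranges overlapped. The log2 fold change of A + T vs. T was −0.46 ± 0.11 (edgeR adjusted p = 0.0411) and that of T vs. S was 0.30 ± 0.11 (adjusted p = 0.0827). The A + T vs. T call was lost when animal 2 or 3 of S, 11 or 15 of T, or 20 or 21 of A + T was left out, with an adjusted p up to 0.129. In T vs. S, Hsp90b1 was called in DESeq2, without animal 5 of S, without animal 12 of T, and without animals 12 and 22. Hspa5 (chr2:34771970-34777547, plus strand) followed the same order, with 780.3, 941 and 1062 CPM in S, 1037, 855 and 1248 CPM in T, and 717, 758 and 650.1 CPM in A + T. All 3 A + T values were the lowest of the 9, but the difference from T, −0.56 ± 0.15 on the log2 scale, did not pass the test (adjusted p = 0.0546). Hspa5 was called in this comparison in DESeq2, without animal 12 of T, and without animals 12 and 22.

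Dnajc3 (chr14:118937976-118981697, plus strand) was at 86.5, 86.6 and 95.2 CPM in S, 94.3, 96.8 and 107 CPM in T, and 65.7, 70.1 and 81.3 CPM in A + T. The A + T libraries lay below both other groups. On the log2 scale A + T differed from T by −0.46 ± 0.09 (edgeR adjusted p = 0.0243) and from S by −0.31 ± 0.09 (adjusted p = 0.0725). The call in A + T vs. T was lost without any one of the 3 T animals and without animal 20 or 21 of A + T (adjusted p up to 0.0720). In A + T vs. S, Dnajc3 was called in DESeq2, without animal 22 of A + T, and without animals 12 and 22. Dnajb9 (ERdj4, chr12:44205559-44210326, minus strand) was at 61.4, 65.7 and 81.6 CPM in S, 86.4, 86.8 and 98.3 CPM in T, and 71.1, 70.4 and 65.2 CPM in A + T. T stood above both other groups, which overlapped. Its log2 fold change was 0.38 ± 0.11 in T vs. S (edgeR adjusted p = 0.0308) and −0.39 ± 0.11 in A + T vs. T (adjusted p = 0.0604). The T vs. S call was lost without animal 2 or 3 of S or any T animal (adjusted p up to 0.107). In A + T vs. T, Dnajb9 was called in DESeq2 and without animal 5 of S.

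Hyou1 (chr9:44379490-44392369, plus strand) went another way, with 87.0, 72.7 and 103 CPM in S, 64.1, 56.1 and 85.1 CPM in T, and 56.0, 58.2 and 47.8 CPM in A + T. T and S overlapped, and A + T lay below S. The log2 fold change was −0.36 ± 0.16 in T vs. S (edgeR adjusted p = 0.146) and −0.69 ± 0.16 in A + T vs. S (adjusted p = 0.0299). That call was lost without animal 2 or 5 of S or any A + T animal (adjusted p up to 0.0982). Without animal 15 of T, Hyou1 was called lower in T vs. S. The other lumenal members were not called in any comparison. Manf, a secreted neurotrophic factor of the ER, was at 75.5 ± 25.0 CPM in T (SD, n = 3), a wide spread set by 104 CPM in animal 15, and at 52.8 ± 2.28 CPM in A + T. Creld2, Sdf2l1 and Dnajb11, which work beside BiP, had log2 fold changes of −0.35, −0.39 and −0.18 in A + T vs. T. Ppib, a proline isomerase, was the exception in that comparison, at 0.21 ± 0.10.

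In the calnexin and calreticulin cycle, which holds newly made glycoproteins, no member was called in the edgeR fit of all libraries. Canx was at 371, 405 and 424 CPM in S, 449, 458 and 451 CPM in T, and 386, 397 and 333 CPM in A + T. Every T library lay above every library of the other groups, with an adjusted p of 0.182 between T and S and 0.0913 between A + T and T, the latter called in DESeq2. Calr had 344 ± 43.8 CPM in S, 333 ± 39.5 CPM in T and 280.1 ± 8.49 CPM in A + T (SD, n = 3). Pdia3, the isomerase that works with these lectins, had 230.1 ± 21.98, 206 ± 14.5 and 184 ± 6.87 CPM in the same order. Pdia3 in A + T vs. S, with a log2 fold change of −0.33 ± 0.09, fell just short of the threshold (edgeR adjusted p = 0.0519) and passed it in DESeq2, in limma-voom, in edgeR with at least 10 counts in every library and with the deposited log2 values.

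P4hb, the main protein disulfide isomerase and a subunit of collagen prolyl hydroxylase (chr11:120560298-120573253, minus strand), was at 288, 283 and 297 CPM in S, 445, 437 and 400.3 CPM in T, and 277, 282 and 320.3 CPM in A + T. T stood clear of both other groups, and S and A + T overlapped. The log2 fold change was 0.56 ± 0.08 in T vs. S (edgeR adjusted p = 0.00154), −0.55 ± 0.08 in A + T vs. T (adjusted p = 0.00769) and 0.02 ± 0.08 in A + T vs. S (adjusted p = 0.926). Both calls were kept with each of the 9 animals left out. After scaling by library size only, the A + T vs. T call was lost (adjusted p = 0.0671). The fibroblast markers, whose cells make collagen, were lower in T vs. S. The part of these cells in the P4hb values was not tested.

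The other isomerases and oxidases were not called in the edgeR fit of all libraries. Pdia4 was at 48.6 ± 10.9 CPM in S, 39.9 ± 5.78 CPM in T and 33.4 ± 1.30 CPM in A + T (SD, n = 3), and A + T differed from S by −0.54 ± 0.15 on the log2 scale (edgeR adjusted p = 0.0542), a difference that DESeq2 called. Pdia6 was at 104 ± 15.8, 103 ± 17.4 and 83.8 ± 2.33 CPM in that order. Pdia5 stayed between 4.77 and 9.01 CPM and Ero1l, the more abundant of the ER oxidases, between 19.6 and 24.0 CPM. Ero1lb was the member with the most positive value in A + T vs. T, 0.45 ± 0.17 on the log2 scale (adjusted p = 0.146), at 3.97, 3.27 and 4.02 CPM in T and 5.13, 5.31 and 4.87 CPM in A + T.

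Of the sensors and transcription factors, Xbp1 (chr11:5520659-5525893, plus strand) was at 86.6, 93.9 and 99.4 CPM in S, 106, 116 and 109.7 CPM in T, and 70.3, 75.2 and 95.6 CPM in A + T. The T libraries were the highest 3 of the 9, and the A + T range reached into that of S. Its log2 fold change was −0.46 ± 0.11 in A + T vs. T (edgeR adjusted p = 0.0418) and 0.25 ± 0.11 in T vs. S (adjusted p = 0.144). The A + T vs. T call was kept only without animal 22 of A + T and was lost without any one of the other 8 animals (adjusted p up to 0.112). Atf6 had the same order, with 194, 191 and 192 CPM in S, 261, 219 and 235 CPM in T, and 203, 214 and 149 CPM in A + T. It was not called in the edgeR fit of all libraries (adjusted p = 0.105 in T vs. S and 0.146 in A + T vs. T). With only the compared groups, and without animal 22 of A + T, Atf6 and Xbp1 were both called higher in T vs. S. Without animals 12 and 22, Atf6 was called there and Xbp1 was not. In A + T vs. S, Xbp1 was called lower without animal 22 of A + T and without animals 12 and 22. The lowest Atf6 value was that of animal 22 of A + T.

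Atf6b (chr17:34647146-34655074, plus strand), whose product is cut in the same way as Atf6, had a T vs. S value of the opposite sign. It was at 21.8, 20.05 and 20.6 CPM in S, 15.99, 14.6 and 15.7 CPM in T, and 17.1, 17.1 and 16.02 CPM in A + T. Both T and A + T lay below S. The log2 fold change was −0.43 ± 0.09 in T vs. S (edgeR adjusted p = 0.00584), a call kept with each animal left out, and −0.32 ± 0.08 in A + T vs. S (adjusted p = 0.0468). The A + T vs. S call was lost without any one of the 9 animals (adjusted p up to 0.164) and in 7 of 10 other ways of processing. Ern1, the gene of Ire1, was at 14.6 ± 3.27, 16.6 ± 2.03 and 17.8 ± 1.99 CPM in S, T and A + T (SD, n = 3), and Eif2ak3, the gene of Perk, at 17.9 ± 0.438, 15.6 ± 2.73 and 18.7 ± 1.52 CPM.

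Downstream of Perk, Ddit3 (Chop), a transcription factor of prolonged ER stress, was at 16.7 ± 2.44 CPM in S, 14.6 ± 2.54 CPM in T and 13.5 ± 1.59 CPM in A + T and was not called, with an edgeR adjusted p between 0.230 and 0.692. Ppp1r15a (Gadd34), which restores translation after Perk has acted, was at 33.7, 35.9 and 45.0 CPM in S, 45.3, 47.4 and 79.1 CPM in T, and 46.1, 59.9 and 63.0 CPM in A + T. All T and A + T values were above all S values, by narrow margins at the edge. The log2 fold change was 0.58 ± 0.21 in T vs. S (edgeR adjusted p = 0.0757) and 0.56 ± 0.21 in A + T vs. S (adjusted p = 0.122). The first was called in DESeq2 and without animals 12 and 22, and the second without animal 15 of T. Its constitutive relative Ppp1r15b stayed between 28.9 and 40.8 CPM.

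In ER-associated degradation, Herpud1 (chr8:94386438-94395377, plus strand) had the largest difference of any member. It was at 208, 204 and 209 CPM in S, 371, 404 and 341 CPM in T, and 181, 221 and 242 CPM in A + T. The T libraries stood far above the other 6. The log2 fold change was 0.85 ± 0.11 in T vs. S (edgeR adjusted p = 0.000793), −0.79 ± 0.11 in A + T vs. T (adjusted p = 0.00558) and 0.05 ± 0.11 in A + T vs. S (adjusted p = 0.798). Both calls were kept with each animal left out and in all 10 other ways of processing.

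None of the other members in this route was called in the edgeR fit of all libraries. Factors of the route outside the member list were called, as given further below. Syvn1 (Hrd1), the ubiquitin ligase, was at 37.3 ± 6.41 CPM in S, 29.6 ± 4.25 CPM in T and 26.5 ± 5.41 CPM in A + T (SD, n = 3), and Sel1l, its adaptor, at 89.0 ± 4.12, 90.5 ± 6.98 and 82.0 ± 10.2 CPM. Edem1, a mannosidase-like factor that hands over misfolded glycoproteins, was at 19.1, 17.1 and 22.3 CPM in S, 12.8, 15.5 and 15.7 CPM in T, and 14.0, 17.4 and 19.0 CPM in A + T. Every T value of Edem1 was under every S value (log2 fold change −0.41 ± 0.14, edgeR adjusted p = 0.0662), and it was called with only the compared groups and without animal 20 or 22 of A + T. Edem2 and the channel proteins Derl1 and Derl2 differed by at most 0.20 on the log2 scale between any groups.

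Both translocon members had negative values in T vs. S, and 1 was called. Sec61a1 (chr6:88503579-88518905, minus strand) was at 49.4, 47.7 and 51.2 CPM in S, 35.9, 40.3 and 41.2 CPM in T, and 39.3, 37.5 and 46.0 CPM in A + T. The S libraries were the highest 3 of the 9. Its log2 fold change was −0.34 ± 0.09 in T vs. S (edgeR adjusted p = 0.0275), lost without any one of the S animals or animal 11 or 12 of T (adjusted p up to 0.103). In A + T vs. S it was −0.27 ± 0.09 (edgeR adjusted p = 0.0988), called without animal 22 of A + T and without animals 12 and 22. Sec61b, the small subunit, had 7.09 ± 0.953 CPM in S, 5.2 ± 1.38 CPM in T and 6.56 ± 1.90 CPM in A + T (SD, n = 3) and was not called.

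**Figure D3:**
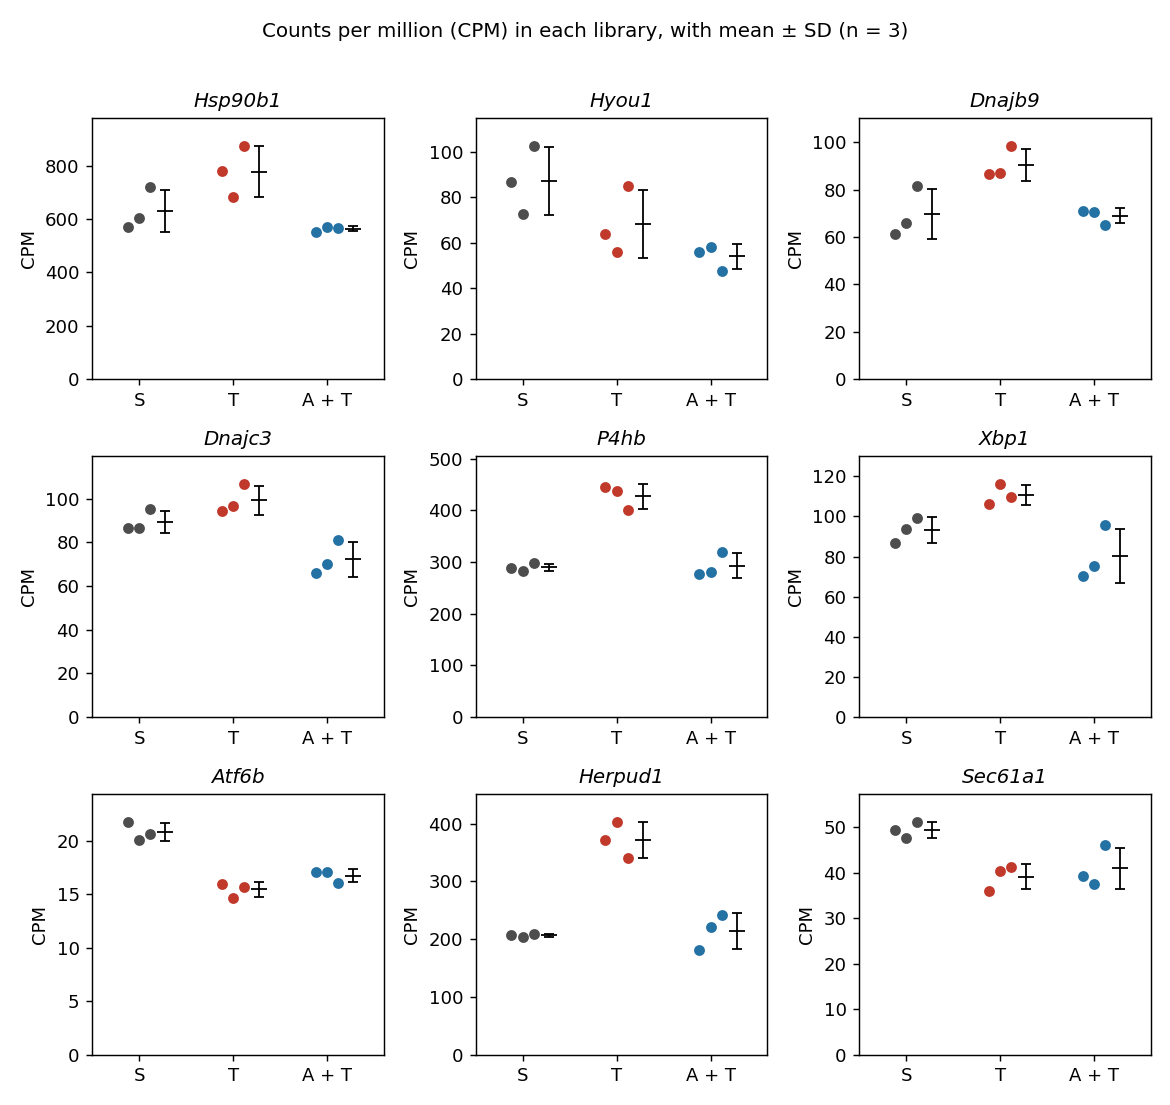
CPM of the 9 members called in any comparison in each of the 9 libraries (vertical axes from 0, a different scale for each gene), with the mean and SD of the 3 libraries of a group beside the points. Herpud1 (341 to 404 CPM in T) and P4hb (400.3 to 445 CPM in T) show the T libraries apart from both other groups, Atf6b and Sec61a1 show S above T, and Hyou1 is lowest in A + T.

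The members with and without an ERSE or ERSE-II match were set side by side as a description, since the grouping was made with earlier results known. In A + T vs. T, 2.79% of all genes tested were called lower and 3.09% higher. Among the 11 members with a match, 10 had a negative log2 fold change in that comparison, 3 of them called, with a median of −0.30. Of the 19 members whose window held neither, 11 were negative and 2 were called (P4hb and Xbp1), with a median of −0.05. The medians were 0.13 and 0.02 in T vs. S, and −0.23 and −0.11 in A + T vs. S. The 14 tested genes outside the members with either match had a median of −0.06 in A + T vs. T, with 1 called higher and 1 lower. The exception among the members was Ero1lb, whose match is printed above with those of Hspa5, Hsp90b1, Dnajc3 and Herpud1.

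**Figure D4:**
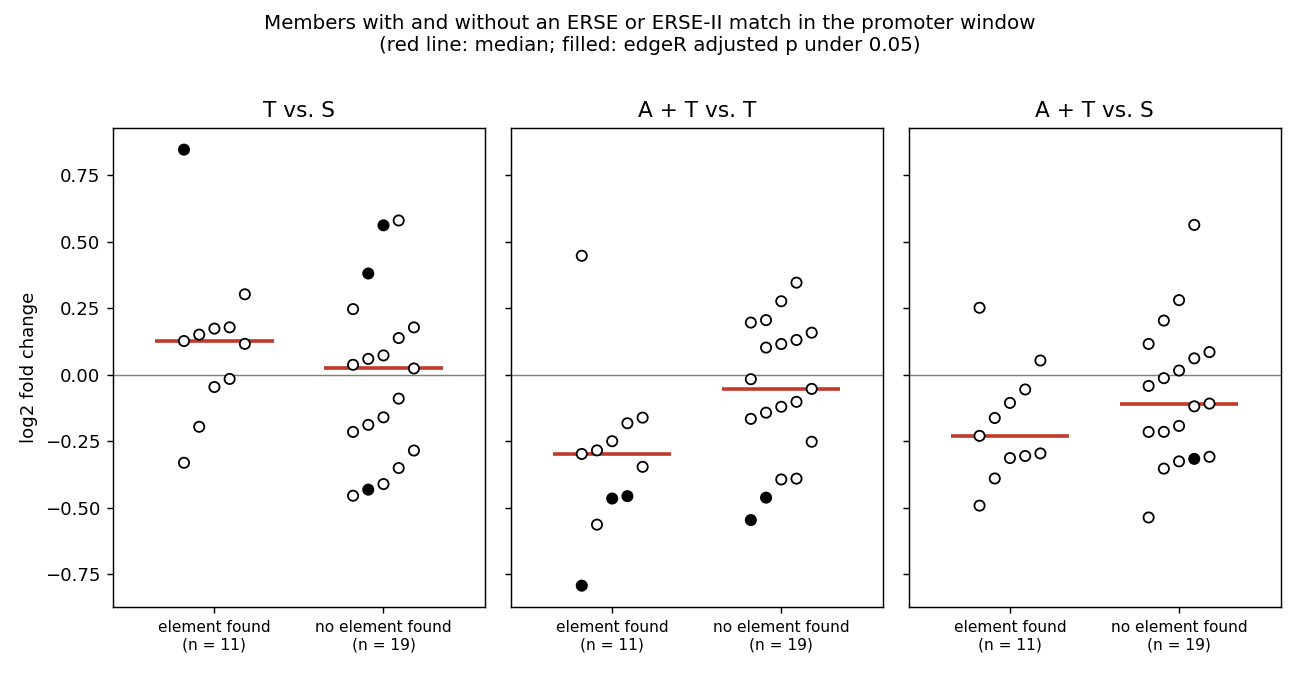
Log2 fold change (vertical axis) of the 11 members with and the 19 members without an ERSE or ERSE-II match in their promoter window, in the 3 comparisons, with red lines for medians and filled points for called members. The medians in A + T vs. T are −0.30 and −0.05, and the single positive point of the first group there is Ero1lb.

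A list of 123 other genes of ER folding, glycosylation, degradation, translocation and shape was used for context, and 119 were tested. In T vs. S, 23 were called higher (19.3%) and 13 lower (10.9%), with a median log2 fold change of 0.09. The shares of all genes tested in that comparison were 10.3% higher and 11% lower. Fam134b, a receptor that hands ER to autophagy, was at 265, 349 and 391 CPM in S, 845, 799 and 757 CPM in T, and 631, 697 and 641 CPM in A + T. It was 2.39-fold higher in T vs. S (edgeR adjusted p = 0.000232) and 1.96-fold higher in A + T vs. S (adjusted p = 0.00354), with no overlap of S with the others. Spcs3, a signal peptidase subunit, had a log2 fold change of 0.74 and Ubxn8, which tethers the degradation ATPase to the ER, of 0.65 in T vs. S, and both were called. The largest falls were Serpinh1, the collagen chaperone Hsp47, at −1.69, and the stress transducers Creb3l1 at −1.60 and Creb3l2 at −0.74. Serpinh1 and Creb3l1 serve collagen-secreting cells, and the 6 fibroblast markers had a median of −1.55 in the same comparison; their part in these values was not tested.

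Other factors of ER-associated degradation made up 9 of the 23 genes called higher in T vs. S, out of 23 such factors tested, with 1 called lower, where 10.3% of all genes tested were called higher. A smaller set of the 119 was called in A + T vs. T, 2 higher and 5 lower, and the median log2 fold change of all 119 was −0.10. These 7 are 5.88% of the 119, as against 5.88% of all genes tested. The lower genes included Ube2g2, a ubiquitin-conjugating enzyme, at −0.47, Srp68, of the signal recognition particle, at −0.43, and Ubxn8 at −0.40. The genes called higher were Ppic, a proline isomerase, at 0.65 and Serpinh1 at 0.57, beside a median of 1.14 for the fibroblast markers. Set against S, 4.67% of all genes tested were called higher in A + T and 3.64% lower. Of the 119 genes, 4 were called higher (3.36%) and 11 lower (9.24%). The largest rises were Fam134b, Sec61g, the third translocon subunit, at 0.70, and Qsox2, a sulfhydryl oxidase, at 0.44, and the largest falls Serpinh1 at −1.12, Creb3l1 at −1.04 and Creb3l2 at −0.74. After scaling by library size only, 14, 1 and 7 of these genes were called in the 3 comparisons, against 36, 7 and 15.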

How the data were processed

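The authors aligned 75-base paired reads of heart mRNA libraries to mm10 with STAR and assigned uniquely mapped pairs to RefSeq genes by strand with featureCounts; tool versions are not given in the sources used here. They deposited counts per gene, without normalization, which were tested here. The authors also deposited log2 values, which equalled edgeR's log2 CPM minus a constant for each gene (median SD across libraries 1.66e-05) and were used to compare levels between genes. That constant was read as a term for gene length. After 3443 rows without a symbol or value, the table held 13890 genes, and 526 that did not reach 0.5 CPM in at least 5 libraries were set aside. edgeR 4.0.16 (R 4.3.3) fitted all 9 libraries after TMM scaling. The reads carried no molecular identifiers, so that depth covers counting error only, and 3 counts correspond to between 0.152 and 0.281 CPM. Rn45s, a ribosomal RNA gene, held 4.57% to 19.6% of a library. Within a group, no pair of libraries was alike to within counting noise (chi-square per gene of at least 7.64). The largest values were those of animal 15 of T, 136 against animal 11 and 130 against animal 12. Animals 11 and 12 gave 17.2 against each other. The edgeR steps were tested on simulated counts, in which the changed genes had larger folds than any member here. Differences of the members' size were not simulated.

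Values per library are given for every member called in any comparison and for others of note, chosen after their values were seen. Of the other genes, the 3 largest rises and falls among those called in each comparison are named. The members and lists were chosen with earlier results of these data known. Coordinates are from GENCODE M21 (GRCm38) and promoters from RefSeq (GRCm38.p6). The alternatives were DESeq2 1.42.0, limma-voom (limma 3.58.1), edgeR with DESeq2 size factors, upper-quartile scaling or library size only, leaving out Rn45s, only the compared groups, a minimum of 10 counts in every library, no filter on low counts, the deposited log2 values with limma, an adjusted p under 0.1, the study's unadjusted p under 0.05 with 1.5-fold, and each animal left out. Leaving out animals 12 and 22 was chosen after seeing the data. The study's own gene comparisons were read to check the labels and are not used in any value.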

Additional observations from a re-analysis of the deposited data

How the results depend on the processing

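No call of a member changed direction in any alternative. Of the 12 calls, 12 held at adjusted p under 0.05 in limma-voom, with DESeq2 size factors and with at least 10 counts in every library, and 11 in DESeq2, without Rn45s, without the filter, with the deposited log2 values, and without animals 12 and 22. Upper-quartile scaling kept 9, only the compared groups 8, and library size only 5. The cause of these losses was not tested.

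The 5 members called in T vs. S were 3 after library size only, 8 with only the compared groups, 8 without animals 12 and 22, 8 at an adjusted p under 0.1, 1 at the study's thresholds, and 3 to 8 with an animal left out (3 without S 2, S 3 or T 11, 8 without A + T 22). The 5 in A + T vs. T were 8 in DESeq2, 3 after upper-quartile scaling, 1 after library size only, 2 with only the compared groups, 8 at an adjusted p under 0.1, 1 at the study's thresholds, and 2 to 5 with an animal left out (3 without S 2 or S 3, 2 without T 11, T 15, A + T 20 or A + T 21). The 2 in A + T vs. S were 4 in DESeq2, 4 without animals 12 and 22, 6 at an adjusted p under 0.1, 0 to 3 with an animal left out (0 without S 2, S 5, A + T 20 or A + T 21, 3 without A + T 22, 1 without S 3, T 11 or T 12), and 1 after upper-quartile scaling, after library size only, without Rn45s, without the filter, with only the compared groups, and at the study's thresholds. The 2838 genes called in T vs. S were 1636 after library size only and 1765 to 3786 with an animal left out (1797, 1874 and 1859 without S 2, 3 and 5, 1765 without T 11). The 786 in A + T vs. T were 1198 in DESeq2, 438 after library size only, 217 with only the compared groups, 1499 at an adjusted p under 0.1 and 130 to 1006 with an animal left out (466 and 523 without S 3 and S 5, 130 and 426 without T 11 and T 12, 335 and 481 without A + T 20 and A + T 21). The 1110 in A + T vs. S were 555 after library size only, 2041 at an adjusted p under 0.1 and 269 to 1086 with an animal left out (269, 300 and 533 without S 2, 3 and 5, 693 without A + T 21). At the study's thresholds, 1899, 1084 and 1191 of the 13364 genes tested passed in the 3 comparisons, where 1 member passed in each. In T vs. S, 3958 genes passed at an adjusted p under 0.1, 3402 with only the compared groups and 3531 without animals 12 and 22. The share of called genes that were higher was 48.3% in T vs. S and 35.8% after library size only, and in A + T vs. T 52.5%, 71.7% after library size only and 65.5% after upper-quartile scaling. No paired analysis was possible because the labels give each animal its own number.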
